A study of Mus musculus with 16 samples.

Results

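The casein genes code for the main proteins of milk, and the 5 members described here are Csn1s1, Csn2, Csn1s2a, Csn1s2b and Csn3. They were taken by gene name from a table of 24187 rows, in which each member has 1 row. RNA had been sequenced from whole mammary gland at day 13 of pregnancy, in 3 libraries of Socs2-Δs mice and 4 libraries of wild-type mice. The Socs2-Δs line was made by CRISPR/Cas9 genome editing. Both groups were of the C57BL/6 strain. Wild-type animals were purchased, so that genotype and source of the animals run together. Socs2 codes for an inhibitor of cytokine signalling through the JAK kinases and STAT transcription factors, and STAT5 is the regulator that the series title gives. The comparison therefore bears on how the genes of a STAT5-dependent lineage differ between the edited and the wild-type gland. Titles and source names call the 3 Socs2-Δs RNA samples Mut while their genotype tag says wild type, and the titles were followed here. Whether replicates came from separate animals is not stated, so the p-values measure only the spread between these libraries, which may be in part technical.

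Caseins are made by the secretory luminal cells of the alveoli, which form during pregnancy and fill with milk after birth. Prolactin, acting through its receptor, JAK2 and STAT5, induces casein transcription together with glucocorticoid receptor and the ETS factor ELF5. The calcium-sensitive caseins are the products of Csn1s1 (alpha-s1-casein), Csn2 (beta-casein), Csn1s2a (gamma-casein of the mouse) and Csn1s2b (delta-casein of the mouse). They carry clusters of phosphorylated serines that bind calcium phosphate. The product of Csn3, kappa-casein, sits at the surface of the casein micelle and keeps it in suspension. The genes lie together on chromosome 5, in the order Csn1s1, Csn2, Csn1s2a, Csn1s2b and Csn3, per the RefSeq annotation of the mouse assembly GRCm38.p6. The deposited values were made on the older build mm9 and carry no coordinates.

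The 250 bases before the start site are shown for the 3 members that have an entry among the RefSeq promoter sequences of GRCm38.p6. Each is printed 5′ to 3′ on the strand of its gene. Capitals mark the STAT palindrome TTCNNNGAA (N is any base), the interferon-gamma-activated sequence bound by STAT5. The Csn1s1 stretch is chr5:87665958-87666207 on the plus strand, that of Csn2 is chr5:87699426-87699675 on the minus strand, and that of Csn1s2a is chr5:87774200-87774449 on the plus strand.
Csn1s1: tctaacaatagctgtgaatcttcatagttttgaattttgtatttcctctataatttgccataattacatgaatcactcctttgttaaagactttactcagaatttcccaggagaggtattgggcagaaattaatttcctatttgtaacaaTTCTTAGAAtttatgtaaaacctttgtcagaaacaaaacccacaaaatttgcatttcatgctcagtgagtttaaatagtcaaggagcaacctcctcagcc
Csn2: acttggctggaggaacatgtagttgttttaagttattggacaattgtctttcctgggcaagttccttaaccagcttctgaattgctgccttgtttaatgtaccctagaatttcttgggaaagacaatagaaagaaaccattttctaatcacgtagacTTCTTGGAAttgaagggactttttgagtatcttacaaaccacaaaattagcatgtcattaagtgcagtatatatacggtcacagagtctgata
Csn1s2a: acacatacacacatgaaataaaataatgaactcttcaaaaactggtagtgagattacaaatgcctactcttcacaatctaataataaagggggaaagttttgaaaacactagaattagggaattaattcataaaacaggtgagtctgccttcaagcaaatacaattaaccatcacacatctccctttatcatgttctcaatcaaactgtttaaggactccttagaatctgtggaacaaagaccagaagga
The palindrome was found as TTCTTAGAA in Csn1s1, from -100 to -92 relative to the start site, and as TTCTTGGAA in Csn2, from -93 to -85. No match lay in the window of Csn1s2a. Of all 32851 RefSeq promoter windows of this length, 7.02% held the palindrome. The glucocorticoid receptor half-site AGAACA, searched on both strands, had 1 match among the 3 windows, on the minus strand of Csn1s2a from -59 to -54, and 16.1% of all windows held it. The TATA box TATAAA on the sense strand (7.59% of windows), the C/EBP motif TTGCNNAA (9.56%), the ETS motif AGGAAG (29.5%) and the NFI motif by its palindrome (0.0365%) were not matched in these 3 windows. The last 3 of these motifs were searched on both strands. No window held more than 1 match, so none overlapped. A match describes the letters only, and binding was not measured in the data used here.

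Levels are given as FPKM, which divides the reads of a gene by its length and by the size of the library, so that different genes can be set side by side. Whole reads could be recovered from the steps between the values (tolerance 0.02 of a read). They summed to 21.8, 22.5 and 22.3 M (mega) reads in Socs2-Δs replicates 1 to 3 and to 21.3, 21.5, 24.5 and 21.8 M in wild-type replicates 1 to 4. These sums thus did not separate the groups. The FPKM worth of 1 read did not follow them. Relative to Socs2-Δs replicate 1 it was 1.01 and 1.08 in Socs2-Δs replicates 2 and 3. It was 0.92, 0.97, 1.10 and 1.15 in wild-type replicates 1 to 4. The sums are therefore not the library sizes by which the FPKM were divided. Wild-type replicates 3 and 4 lay away from all other libraries. On the first principal component, with 61.6% of the variance, the Socs2-Δs libraries lay from -37.7 to -29.6, wild-type replicates 1 and 2 at -15.8 and -18.2, and wild-type replicates 3 and 4 at 57.1 and 77.9. Neat1, a nuclear RNA, was at 495.9 to 586.2 FPKM in the Socs2-Δs libraries, 464.1 and 442.2 FPKM in wild-type replicates 1 and 2, but only 11.4 and 14.8 FPKM in replicates 3 and 4 of that group. The test of each casein is therefore given with and without those libraries. Correlations and group means of casein shares are given over all 7 libraries only. No mutant library stood with wild-type replicates 3 and 4, so a comparison within that pair was not possible. Socs2 itself was at 17.1, 13.9 and 16.0 FPKM in Socs2-Δs replicates 1 to 3, against 25.6, 22.1, 24.8 and 16.1 FPKM in wild-type replicates 1 to 4. The groups overlapped at wild-type replicate 4, and the difference of -0.46 on the log2(FPKM + 1) scale did not pass (limma Benjamini-Hochberg adjusted p = 0.267).

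All 5 caseins were at higher levels in each of the 3 Socs2-Δs libraries than in each of the 4 wild-type libraries. The ratio of group means ran from 3.64 for Csn1s2b to 5.23 for Csn1s2a. Of the 13392 genes tested, 12.5% showed this separation upwards and 10.0% downwards. None of the 5 differences passed the test over all 7 libraries, in which 0.0448% of all genes passed upwards, and 4 of the 5 passed without wild-type replicates 3 and 4, in which 1.42% did. The tests follow after the levels.

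Csn2 codes for beta-casein and was the most abundant member. It was at 31556, 39445 and 44988 FPKM in Socs2-Δs replicates 1 to 3, against 5663, 9011, 20117.5 and 1939.85 FPKM in wild-type replicates 1 to 4. No other gene had a higher level than Csn2 in any Socs2-Δs library or in wild-type replicates 2 and 3, whereas it was at place 2 in wild-type replicate 1 and at place 51 in wild-type replicate 4. The means were 38663 ± 6750 FPKM in Socs2-Δs (SD, n = 3) and 9183 ± 7841 FPKM in wild type (SD, n = 4), a ratio of 4.21. The lowest Socs2-Δs library was 1.57 times the highest wild-type library, and the wild-type libraries spread over 10.4-fold.

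Csn1s2a, the gene of gamma-casein, had the widest difference in the family. Its level was 21717, 26645 and 32119.5 FPKM in Socs2-Δs replicates 1 to 3, against 2194.5, 3521, 14157.5 and 637 FPKM in wild-type replicates 1 to 4. The group means were 26827 ± 5204 FPKM in Socs2-Δs (SD, n = 3) and 5128 ± 6134 FPKM in wild type (SD, n = 4), and the wild-type SD exceeded its mean. Wild-type replicate 3 was 4.95 times the mean of wild-type replicates 1 and 2 and 22.2 times wild-type replicate 4. The groups did not overlap, but the lowest Socs2-Δs library was only 1.53 times wild-type replicate 3.

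Csn1s1, the gene of alpha-s1-casein, was the member with the least spread among the mutant libraries. It was at 14312, 15566 and 15139 FPKM in Socs2-Δs replicates 1 to 3, against 2243, 3195, 7849 and 928 FPKM in wild-type replicates 1 to 4. The coefficient of variation, the SD as a percentage of the mean, was 4.25% in Socs2-Δs and 84.7% in wild type. The means of 15005.5 ± 637 FPKM in Socs2-Δs (SD, n = 3) and 3554 ± 3011 FPKM in wild type (SD, n = 4) gave a ratio of 4.22.

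Csn3, the gene of kappa-casein, lay below the 3 abundant members in every library. It was at 2489.9, 2675 and 2369 FPKM in Socs2-Δs replicates 1 to 3, against 459, 642, 1484 and 159 FPKM in wild-type replicates 1 to 4. The means were 2512 ± 154 FPKM in Socs2-Δs (SD, n = 3) and 686 ± 568 FPKM in wild type (SD, n = 4), a ratio of 3.66. Its place among all rows by level was 10, 14 and 18 in Socs2-Δs replicates 1 to 3, against 138, 120, 102 and 578 in wild-type replicates 1 to 4.

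Csn1s2b, the gene of delta-casein, was by far the lowest member. It was at 7.69, 10.1 and 12.4 FPKM in Socs2-Δs replicates 1 to 3, against 2.41, 2.45, 6.01 and 0.192 FPKM in wild-type replicates 1 to 4. These levels rested on 138, 179 and 206 reads in Socs2-Δs and on 47, 45, 98 and 3 reads in wild type. The exact Poisson 95% interval, which covers counting error only, was 116 to 163 reads for Socs2-Δs replicate 1, 79.6 to 119 reads for wild-type replicate 3 and 0.619 to 8.77 reads for wild-type replicate 4. The intervals of the lowest mutant and the highest wild-type library thus met, although the values did not. Csn1s2a and Csn1s2b are related in sequence, the counting is not given in the sources used here, and reads shared between such genes could add to the lower one. Csn1s2a had 527945 to 720343 reads in the Socs2-Δs libraries, far above the reads of Csn1s2b.

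**Figure D1:**
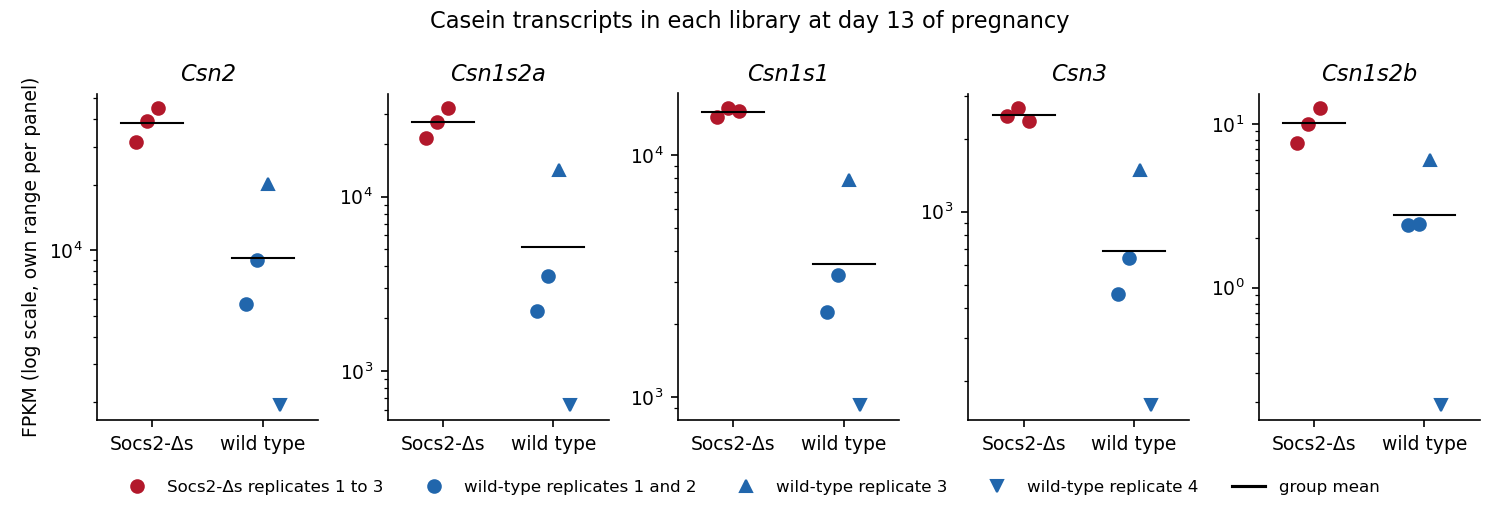
FPKM of the 5 caseins (log axis, own range in each panel) in the 3 Socs2-Δs libraries, at the left, and the 4 wild-type libraries, at the right, with a horizontal line at each group mean and own markers for wild-type replicates 3 and 4. All Socs2-Δs points lie above all wild-type points, and wild-type replicates 3 and 4 form the top and the bottom of the wild-type group for every member, for example 20117.5 and 1939.85 FPKM for Csn2.

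Within a library the order of levels was nearly fixed. Csn2 was above Csn1s2a and Csn1s1 in all 7 libraries, and Csn3 and then Csn1s2b came last. Csn1s2a and Csn1s1 changed places: Csn1s2a was the higher in the 3 Socs2-Δs libraries and in wild-type replicates 2 and 3, and Csn1s1 was the higher in wild-type replicates 1 and 4. Across libraries the ranges of Csn2 and Csn1s2a met in the mutant group, since the highest Csn1s2a value, 32119.5 FPKM, exceeded the lowest Csn2 value, 31556 FPKM. The mutant range of Csn1s1 lay below both, and that of Csn3 below Csn1s1. In wild type the ranges of the 3 abundant members overlapped one another, Csn3 overlapped with Csn1s2a and Csn1s1, and Csn1s2b, at most 6.01 FPKM, met none of them.

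The difference between the groups was tested with limma on log2(FPKM + 1), over the 13392 genes whose mean reached 1 FPKM, with p-values adjusted by Benjamini and Hochberg and a threshold of 0.05. Log2 differences are Socs2-Δs minus wild type. Csn1s2a differed by 3.20 (95% interval 0.97 to 5.42, adjusted p = 0.187), Csn2 by 2.52 (0.61 to 4.42, adjusted p = 0.210), Csn1s1 by 2.48 (0.85 to 4.11, adjusted p = 0.176), Csn3 by 2.29 (0.74 to 3.84, adjusted p = 0.183) and Csn1s2b by 1.79 (0.58 to 2.999, adjusted p = 0.182). Thus 0 of 5 passed by limma, although each had an unadjusted p of 0.0081 to 0.0158. By the size of the log2 difference, Csn1s2a was at place 8 of the 13392 genes, Csn2 at 17, Csn1s1 at 18, Csn3 at 24 and Csn1s2b at 66. Over all genes 6 passed upwards (0.0448%) and 0 downwards (0.0%), with 1222 higher (9.12%) and 1202 lower (8.98%) at an unadjusted p under 0.05, and the median log2 difference was -0.0044. An exact permutation test (two-sided, 35 arrangements) gave p = 0.0571 for each casein, where the smallest p it allows is 0.0286. The count of 0 caseins remained 0 when any 1 library was left out, whereas the count of 6 genes became 17 without wild-type replicate 3, 31 without wild-type replicate 4, 1 without Socs2-Δs replicate 3 and 0 without any 1 of the other 4 libraries.

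Against wild-type replicates 1 and 2 alone, the sizes were nearly the same and the intervals were narrower. Csn1s2b rose by 1.67 (95% interval 1.20 to 2.14, limma adjusted p = 0.0260), Csn3 by 2.21 (1.57 to 2.84, adjusted p = 0.0265), Csn1s2a by 3.25 (2.04 to 4.46, adjusted p = 0.0396) and Csn1s1 by 2.49 (1.49 to 3.49, adjusted p = 0.0472). Csn2 differed by 2.42 (1.01 to 3.84) and did not pass (adjusted p = 0.0949). The ratio of means was 9.39 for Csn1s2a, 5.52 for Csn1s1, 5.27 for Csn2, 4.56 for Csn3 and 4.15 for Csn1s2b. Of the 13276 genes tested in these 5 libraries, 189 passed upwards (1.42%) and 95 downwards (0.716%), with 9.45% higher and 10.7% lower at an unadjusted p under 0.05. The calls depended on each library: the count of 4 became 1 without Socs2-Δs replicate 1 or 3 and 0 without Socs2-Δs replicate 2, wild-type replicate 1 or wild-type replicate 2. The count of 284 genes became 25, 8 and 66 without Socs2-Δs replicates 1, 2 and 3, and 2 and 0 without wild-type replicates 1 and 2. The count of caseins also became 0 when all rows above 0 were tested and when wild-type replicates 3 and 4 were kept under a term of their own. With 3 libraries against 2 the exact permutation test gave p = 0.1 for each member, the smallest p it allows.

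**Figure D2:**
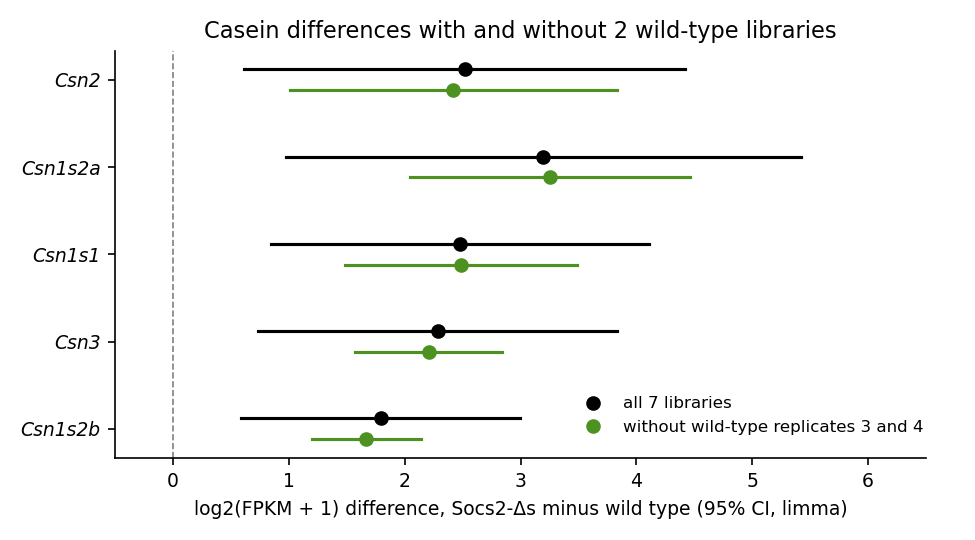
Log2(FPKM + 1) difference of each casein, Socs2-Δs minus wild type, with its 95% interval from limma, over all 7 libraries (black, upper of each pair) and without wild-type replicates 3 and 4 (green, lower). All intervals lie above 0, and those without the 2 libraries are narrower, for example 1.57 to 2.84 against 0.74 to 3.84 for Csn3.

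Wild-type replicates 3 and 4 lay at opposite ends of the wild-type group for every casein. Wild-type replicate 3 was above wild-type replicates 1 and 2 for all 5 caseins, by 2.48-fold for Csn1s2b to 4.95-fold for Csn1s2a over their mean. Wild-type replicate 4 was below both, and the ratio of wild-type replicate 3 to wild-type replicate 4 was 8.45 for Csn1s1, 9.35 for Csn3, 10.4 for Csn2 and 22.2 for Csn1s2a. For Csn1s2b the ratio was 31.3, with only 3 reads in wild-type replicate 4. The mean of the Socs2-Δs libraries was 1.68 to 1.92 times wild-type replicate 3 and 15.8 to 52.4 times wild-type replicate 4. The size of the casein difference thus depended on which of these libraries stood for wild type, while its direction was the same against each of them. The FPKM of all rows summed to 487096, 550556 and 618412 in Socs2-Δs replicates 1 to 3. In wild-type replicates 1 to 4 the sums were 421374, 492933, 771273 and 636044. Ratios between single libraries therefore also depend on the scaling.

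The 5 caseins summed to 14.4, 15.3 and 15.3% of all FPKM in Socs2-Δs replicates 1 to 3, against 2.51, 3.32, 5.65 and 0.576% in wild-type replicates 1 to 4. The shares averaged 15.0 ± 0.533% in Socs2-Δs (SD, n = 3) and 3.01 ± 2.10% in wild type (SD, n = 4), and the groups did not overlap. As a share of reads, which also counts gene length, they made up 9.97 ± 0.906% in Socs2-Δs and 2.15 ± 1.71% in wild type (SD, n = 3 and 4). With each library scaled to the same FPKM total without the caseins, the median log2 difference of all genes was 0.19, and the caseins differed by 1.95 (Csn1s2b) to 3.43 (Csn1s2a).

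The make-up of the casein total differed less than its size. Csn2 took 45.0, 46.8 and 47.5% of the casein FPKM in Socs2-Δs replicates 1 to 3, against 53.6, 55.04, 46.1 and 52.9% in wild-type replicates 1 to 4. Csn1s2a took 31.0, 31.6 and 33.9% in Socs2-Δs replicates 1 to 3, against 20.8, 21.5, 32.5 and 17.4% in wild-type replicates 1 to 4. For both shares wild-type replicate 3 lay within the range of the Socs2-Δs libraries, and the other 3 wild-type libraries lay on one side of it. Csn1s1 took 20.4, 18.5 and 16.0% in Socs2-Δs replicates 1 to 3, against 21.2, 19.5, 18.0 and 25.3% in wild-type replicates 1 to 4, and here the groups overlapped. Csn3 took 3.55, 3.17 and 2.504% in Socs2-Δs replicates 1 to 3, against 4.34, 3.92, 3.403 and 4.33% in wild-type replicates 1 to 4, with wild-type replicate 3 again inside the mutant range. Csn1s2b took 0.0110 to 0.0132% in Socs2-Δs and 0.00524 to 0.0228% in wild type. Wild-type replicate 3, the wild-type library with the most casein, thus lay within the mutant range for the shares of Csn2, Csn1s2a, Csn1s1 and Csn3.

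**Figure D3:**
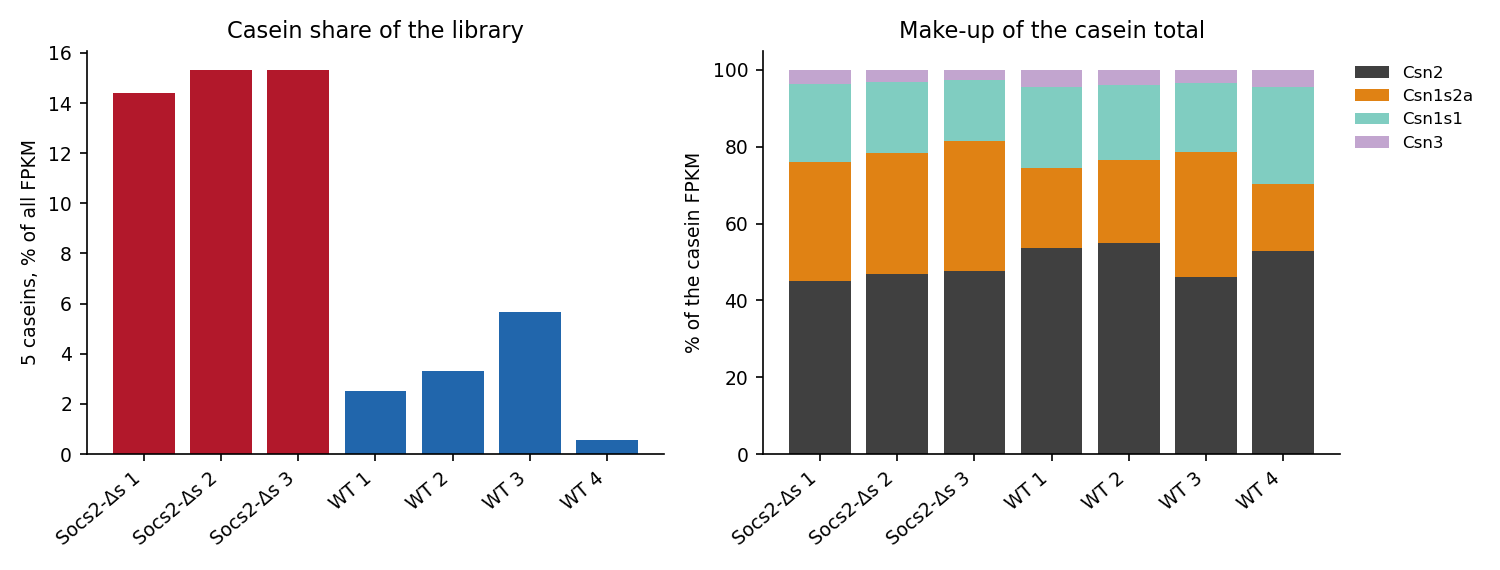
Left, the summed FPKM of the 5 caseins as a percentage of all FPKM in each library, from 14.4 to 15.3% in Socs2-Δs and from 0.576 to 5.65% in wild type (WT). Right, the share of each casein in the casein total per library (Csn1s2b, at most 0.0228%, is too small to draw), in which the Csn1s2a share is 31.0 to 33.9% in Socs2-Δs and 32.5% in wild-type replicate 3, against 17.4 to 21.5% in the other wild-type libraries.

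Ratios between members, which do not depend on the scaling of a library, gave the same picture. All 10 pairs overlapped between the groups. Csn2 over Csn1s2a was 1.45, 1.48 and 1.40 in Socs2-Δs replicates 1 to 3, against 2.58, 2.56, 1.42 and 3.05 in wild-type replicates 1 to 4. The mutant ratios were thus alike and only wild-type replicate 3 was among them. Csn2 over Csn3 was 12.7, 14.7 and 19.0 in Socs2-Δs replicates 1 to 3, against 12.3, 14.0, 13.6 and 12.2 in wild-type replicates 1 to 4. Csn1s2a over Csn3 was 8.72, 9.96 and 13.6 in Socs2-Δs replicates 1 to 3, against 4.78, 5.48, 9.54 and 4.01 in wild-type replicates 1 to 4, again with overlap through wild-type replicate 3 alone. Among the Socs2-Δs libraries, Csn2, Csn1s2a and Csn1s2b were each highest in replicate 3 and lowest in replicate 1, whereas Csn3 was lowest in replicate 3 and Csn1s1 was highest in replicate 2. Over the 7 libraries the log2 levels of the members had Pearson correlations of 0.981 (Csn1s1 and Csn1s2b) to 0.997 (Csn2 and Csn1s2a), a description that shares the libraries, their scaling and the 2 groups. Within the 4 wild-type libraries the correlations ran from 0.975 (Csn1s2a and Csn1s2b) to 0.9995 (Csn1s1 and Csn1s2a). Within the 3 Socs2-Δs libraries they ran from -0.383 (Csn1s2a and Csn3) to 0.9995 (Csn1s2a and Csn1s2b).

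The genes whose levels ran most like those of the caseins over the 7 libraries were sought next. For each casein, the 5 genes outside the family with the highest Pearson correlation of log2(FPKM + 1) were taken from all tested genes. 0610040J01Rik and Bcl2l15 were each among the 5 for 4 of the 5 caseins. Such recurrence is not independent, since the caseins correlated with one another at 0.981 or more. Bcl2l15, a BCL2-related gene, had r = 0.998 with Csn1s2a and was at 35.3, 42.6 and 42.8 FPKM in Socs2-Δs replicates 1 to 3, against 12.4, 15.4, 32.2 and 6.77 FPKM in wild-type replicates 1 to 4. 0610040J01Rik had r = 0.998 with Csn1s1 and was at 22.7, 22.0 and 22.7 FPKM in Socs2-Δs replicates 1 to 3, against 9.75, 12.02, 16.6 and 6.42 FPKM in wild-type replicates 1 to 4. Both were highest among wild-type libraries in replicate 3 and lowest in replicate 4, a likeness to the caseins that follows from how these genes were chosen. Gjb6, which codes for the gap junction protein connexin 30, had r = 0.996 with Csn1s1 and was at 90.3, 100.5 and 80.4 FPKM in Socs2-Δs replicates 1 to 3, against 12.9, 13.7, 44.2 and 3.21 FPKM in wild-type replicates 1 to 4. Rassf6 led the genes most like Csn1s2b (r = 0.992), and Cldn8, a claudin of tight junctions, was among those of Csn1s2a (r = 0.993). Many genes can follow 7 libraries this closely, and these correlations are given with no test.

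The genes beside the caseins on the chromosome were at low levels in mammary gland. RefSeq places 3 protein-coding genes between Csn1s2b and Csn3 (Prr27, Odam and BC037156), and the 8 nearest on either side were added to them. Of these 19 neighbours 18 had a row, and 13 of the 18 stayed below 1 FPKM in every library. Odam, which codes for a protein of the enamel organ and lies within the cluster, was at 0.0495 to 0.197 FPKM in the Socs2-Δs libraries. Among the 2 neighbours with a test, Smr3a and Prol1, both genes of salivary proteins, neither passed, with differences of -1.11 (limma adjusted p = 0.349) and -3.16 (adjusted p = 0.326). Prol1 was at 0.0366, 0.332 and 0.159 FPKM in Socs2-Δs replicates 1 to 3. In wild-type replicates 1 to 4 it was at 0.875, 0.0357, 149.8 and 39.3 FPKM. Smr3a was at 0.322, 0.0649 and 0.0698 FPKM in Socs2-Δs and at 0.237, 0.126, 5.52 and 3.11 FPKM in wild type. The signal of both genes thus lay in wild-type replicates 3 and 4. Both reached the mean of 1 FPKM only through these libraries, and neither was tested without them. Genes of glucuronosyltransferases before Csn1s1 were listed at 0 in the Socs2-Δs libraries and reached 2.61 (Ugt2b37), 3.50 (Ugt2a3) and 3.21 FPKM (Ugt2b38) in wild-type replicate 4.

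**Figure D4:**
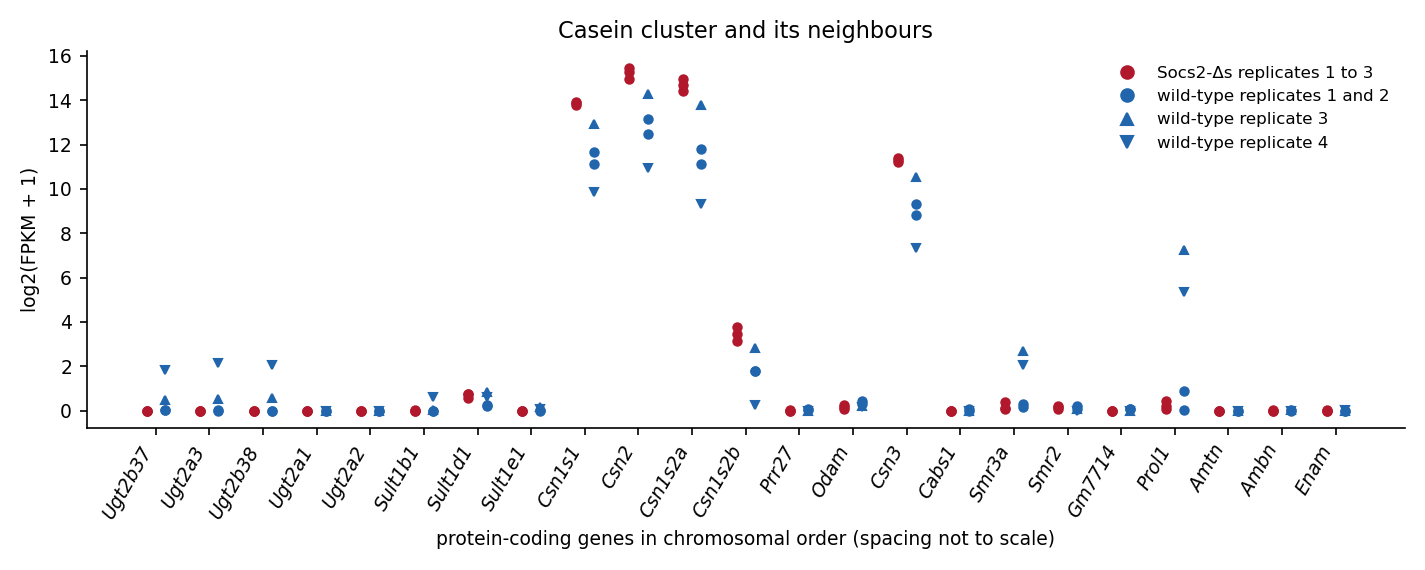
Log2(FPKM + 1) of the caseins and their protein-coding neighbours in the order of GRCm38.p6 (spacing not to scale), with Socs2-Δs libraries in red, at the left of each gene, and wild-type libraries in blue, at the right, replicates 3 and 4 with own markers. Csn1s1, Csn2, Csn1s2a and Csn3 lie above all neighbours in each library, Csn1s2b does not in wild-type replicates 3 and 4, 13 neighbours stayed below 1 FPKM in every library, and Prol1 reached 149.8 FPKM in wild-type replicate 3.

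Among 15 other tested milk protein genes, 13 were higher in every Socs2-Δs library than in every wild-type library (86.7%, against 12.5% of all genes). The median log2 difference was 2.38, beside 2.48 for the caseins and -0.0044 for all genes. With 7 libraries 0 rose and 0 fell by limma. At an unadjusted limma p under 0.05, 13 were higher and 0 lower, against 9.12% and 8.98% of all genes. Without wild-type replicates 3 and 4, 10 of 14 rose and 0 fell, where 1.42% and 0.716% of all genes passed. Leaving out 1 more library brought that count to 6, 1 and 9 (Socs2-Δs replicates 1, 2 and 3) and to 0 (wild-type replicate 1 or 2). Wap, the gene of whey acidic protein, was at 876, 1744 and 1201 FPKM in Socs2-Δs replicates 1 to 3, against 18.5, 32.1, 100.1 and 6.11 FPKM in wild-type replicates 1 to 4. It rose by 5.59 against wild-type replicates 1 and 2 (limma adjusted p = 0.0110), a larger difference than that of any casein. Over all libraries its difference of 5.55 did not pass (adjusted p = 0.0817). Glycam1, a mucin-type glycoprotein of milk, was at 9396, 13586.5 and 11156 FPKM in Socs2-Δs replicates 1 to 3, against 352, 513, 1955 and 321 FPKM in wild-type replicates 1 to 4, and rose by 4.72 against wild-type replicates 1 and 2 (adjusted p = 0.0120). Lalba, the gene of alpha-lactalbumin that directs lactose synthesis, was at 53.1, 77.8 and 124.1 FPKM in Socs2-Δs replicates 1 to 3, against 11.99, 11.1, 10.2 and 2.81 FPKM in wild-type replicates 1 to 4. Unlike the caseins, it was no higher in wild-type replicate 3 than in replicates 1 and 2, and it rose by 2.70 against that pair (adjusted p = 0.0293). Fabp3, a fatty acid binding protein, rose by 4.26 and Xdh, whose product lies on the milk fat globule, by 1.57 (adjusted p = 0.0165 each, without wild-type replicates 3 and 4). The list was not uniform, since Mfge8, a protein of the milk fat globule, overlapped between the groups, with 498 ± 43.4 FPKM in Socs2-Δs and 388 ± 103 FPKM in wild type (SD, n = 3 and 4).

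Of 28 tested genes for regulators of casein transcription, 6 were higher (21.4%) and 3 lower (10.7%) in all Socs2-Δs libraries, against 12.5% and 10.0% of all genes, with a median log2 difference of -0.02 (0.19 at equal totals without the caseins). The share that was lower was thus near that of all genes. With 7 libraries 0 rose and 0 fell by limma (6 higher and 4 lower at an unadjusted p under 0.05, against 9.12% and 8.98% of all genes). Without wild-type replicates 3 and 4, Stat5a and Cish rose and 0 genes fell, where 1.42% and 0.716% of all genes passed, and neither call remained when 1 more library was left out. Stat5a, which codes for the main STAT5 protein of the gland, was at 104.8, 88.9 and 103.8 FPKM in Socs2-Δs replicates 1 to 3, against 50.1, 53.0, 30.8 and 20.9 FPKM in wild-type replicates 1 to 4. It rose by 0.93 against wild-type replicates 1 and 2 (limma adjusted p = 0.0361), and Stat5b differed by 0.61 without passing (adjusted p = 0.0817). Cish, a STAT5 target that codes for a SOCS family protein, was at 62.4, 69.5 and 84.6 FPKM in Socs2-Δs replicates 1 to 3, against 31.0, 34.5, 23.2 and 14.4 FPKM in wild-type replicates 1 to 4, and rose by 1.11 (adjusted p = 0.0365). For Stat5a and Cish, wild-type replicate 3 was below wild-type replicates 1 and 2, the opposite of its place for the caseins. Elf5 was at 310.2, 309.7 and 459.2 FPKM in Socs2-Δs replicates 1 to 3, against 124.7, 177.2, 310.5 and 60.9 FPKM in wild-type replicates 1 to 4. It followed the order of the caseins among wild-type libraries, overlapped between the groups and did not pass in either comparison (adjusted p = 0.249 with 7 libraries and 0.0709 without wild-type replicates 3 and 4). Prlr, the prolactin receptor gene, was at 4.78, 3.396 and 4.04 FPKM in Socs2-Δs replicates 1 to 3, against 3.27, 3.86, 5.48 and 4.94 FPKM in wild-type replicates 1 to 4, and Nr3c1, the glucocorticoid receptor gene, overlapped as well. Neither passed with 7 libraries (limma adjusted p = 0.832 for Prlr and 0.649 for Nr3c1), and without wild-type replicates 3 and 4 their differences turned positive, at 0.14 for Prlr (adjusted p = 0.659) and 0.25 for Nr3c1 (adjusted p = 0.306).

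The genes that modify caseins or load the secretory route with calcium were partly higher. Of 19 tested, 8 were higher in all Socs2-Δs libraries (42.1%, against 12.5% of all genes) and 0 lower, with a median log2 difference of 0.52. With 7 libraries 0 rose and 0 fell by limma. At an unadjusted limma p under 0.05, 10 were higher and 0 lower, against 9.12% and 8.98% of all genes. Without wild-type replicates 3 and 4, 6 rose and 0 fell, where 1.42% and 0.716% of all genes passed. The count of 6 became 2, 1 and 3 without Socs2-Δs replicates 1, 2 and 3, and 0 without wild-type replicate 1 or 2. Fam20c codes for the Golgi kinase that phosphorylates caseins. It was at 72.0, 68.2 and 59.4 FPKM in Socs2-Δs replicates 1 to 3, against 19.4, 19.7, 18.9 and 8.40 FPKM in wild-type replicates 1 to 4, and rose by 1.71 against wild-type replicates 1 and 2 (limma adjusted p = 0.0120). Its pseudokinase partner Fam20a rose by 1.38 in the same comparison (adjusted p = 0.0278). Atp2c2, a Golgi calcium and manganese pump, was at 11.0, 11.9 and 14.3 FPKM in Socs2-Δs replicates 1 to 3, against 1.44, 2.52, 2.19 and 0.441 FPKM in wild-type replicates 1 to 4, and rose by 2.19 (adjusted p = 0.0165). B4galt1, the galactosyltransferase that joins alpha-lactalbumin in lactose synthase, rose by 1.72 (adjusted p = 0.0331), Galnt3, which starts O-glycans, by 0.65 (adjusted p = 0.0477), and the phosphate transporter gene Slc34a2 by 1.95 (adjusted p = 0.0091). Of 20 general genes of the secretory pathway, 3 were higher (15%, near the 12.5% of all genes) and 0 lower without overlap. The median was -0.12 with 7 libraries and 0.15 without wild-type replicates 3 and 4. None rose or fell in either comparison by limma. At an unadjusted limma p under 0.05, 3 and 4 were higher and 0 lower, where 9.12% and 9.45% of all genes were higher. The median with 7 libraries was 0.10 at equal totals without the caseins and 0.13 with quantile normalization. Xbp1 and Creb3l1, transcription factors of secretory cells, came nearest (adjusted p = 0.0546 and 0.0517 without wild-type replicates 3 and 4).

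**Figure D5:**
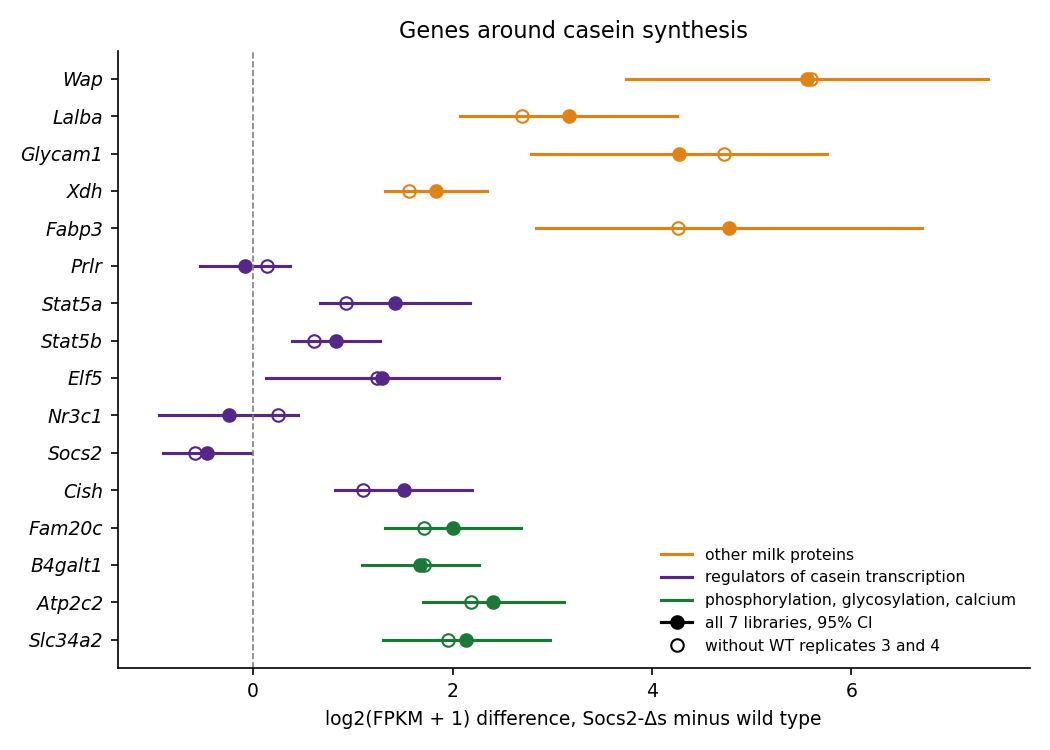
Log2(FPKM + 1) differences, Socs2-Δs minus wild type, of other milk protein genes (orange), regulators of casein transcription (purple) and genes of casein phosphorylation, glycosylation and calcium loading (green), over all 7 libraries (filled, with the 95% interval from limma) and without wild-type replicates 3 and 4 (open). Wap lies at 5.55, Stat5a at 1.42 and Fam20c at 2.005, whereas Prlr at -0.08 and Nr3c1 at -0.24 have intervals across 0 and turn to 0.14 and 0.25 without wild-type replicates 3 and 4.

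In whole tissue, fewer cells of a type and less RNA per cell cannot be told apart. Markers of the cell types are set beside the caseins as a description only. Of 15 tested luminal markers 5 were higher in all Socs2-Δs libraries (33.3%, against 12.5% of all genes) and 0 lower. None rose or fell by limma in either comparison (5 higher at an unadjusted p under 0.05 in each, against 9.12% of all genes with 7 libraries and 9.45% with 5), and the median log2 difference was 0.63 (0.42 without wild-type replicates 3 and 4). Their summed level was 2090 to 3085 FPKM in Socs2-Δs and 1117 to 2507 FPKM in wild type, lowest in wild-type replicate 4 and highest among wild-type libraries in replicate 3, as for the caseins. Relative to the mean log2 level of these markers, the caseins were higher in every Socs2-Δs library than in every wild-type library. The average log2 differences were 2.60 for Csn1s2a, 1.93 for Csn2, 1.89 for Csn1s1, 1.69 for Csn3 and 1.20 for Csn1s2b. Against wild-type replicates 1 and 2 alone they were 2.81, 1.98, 2.05, 1.77 and 1.23 in that order. The marker mean itself differed by 0.59, and by 0.44 without wild-type replicates 3 and 4. It too was higher in every Socs2-Δs library than in every wild-type library. The gap was narrow, with 6.377 in Socs2-Δs replicate 2 and 6.373 in wild-type replicate 3. The groups came close for Csn3, at 4.27 in Socs2-Δs replicate 3 and 4.16 in wild-type replicate 3. They also did for Csn1s2b, at -3.46 in Socs2-Δs replicate 1 and -3.56 in wild-type replicate 3. The share of all genes that separated on this scale was not computed. Prom1 alone among the luminal markers was too low to be tested. The 10 basal markers had a median of 0.00 and no separation between the groups, and their sum was 1170 to 1400 FPKM in Socs2-Δs and 755 to 1410 FPKM in wild type.

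Adipocyte markers ran the other way. All 15 had lower means on the log2 scale in Socs2-Δs, 9 without overlap (60%, against 10.0% of all genes), with a median of -1.12, and their sum was 5855 to 8923 FPKM in Socs2-Δs and 16523 to 36238 FPKM in wild type. With 7 libraries 0 fell by limma (10 lower at an unadjusted p under 0.05, against 8.98% of all genes). Without wild-type replicates 3 and 4, Cidec, a lipid droplet protein, fell by 1.73 (limma adjusted p = 0.0278) and Pparg, the main adipogenic transcription factor, by 0.85 (adjusted p = 0.0365). Neither call remained when 1 more library was left out. In that comparison 0.716% of all genes passed downwards. The median was -0.73 for 10 fibroblast markers (5 lower without overlap, 50%) and -0.80 for 9 macrophage markers (8 lower, 88.9%). It was -0.20 for 8 endothelial markers (2 lower, 25%) and -0.10 for 8 lymphocyte markers (0 lower). Of all genes, 10.0% were lower without overlap. At equal totals without the caseins the medians were -0.51 (fibroblast), -0.61 (macrophage), -0.005 (endothelial) and 0.07 (lymphocyte). Without wild-type replicates 3 and 4 they were -0.54, -0.41, -0.23 and 0.82 in that order. None of these markers rose or fell in either comparison by limma. At an unadjusted limma p under 0.05 over 7 libraries, 6, 8, 2 and 0 were lower, against 8.98% of all genes. The sum of lymphocyte markers was 13.8, 209.8 and 12.7 FPKM in Socs2-Δs replicates 1 to 3, against 14.0, 24.3, 19.6 and 309.0 FPKM in wild-type replicates 1 to 4, so it was high in 1 library of each group. The summed levels of liver and of salivary gland markers were highest in wild-type replicates 3 and 4. Those of liver summed to 11.3 to 24.8 FPKM in Socs2-Δs, against 12.8, 12.5, 270.9 and 2359 FPKM in wild-type replicates 1 to 4, and those of salivary gland to 46.3 to 48.5 FPKM in Socs2-Δs, against 87.5, 70.3, 539.1 and 271.5 FPKM. Bhlha15 of the salivary list went the other way, at 11.7, 11.1 and 17.6 FPKM in Socs2-Δs replicates 1 to 3, against 2.28, 5.27, 5.03 and 0.772 FPKM in wild-type replicates 1 to 4. Outside wild-type replicates 3 and 4, most of the salivary sum was Amy1. It was at 32.6, 36.3 and 28.2 FPKM in Socs2-Δs replicates 1 to 3 and at 82.0 and 64.6 FPKM in wild-type replicates 1 and 2. Prol1, Bpifa2 and Dcpp1 were each below 1 FPKM in these libraries. With 7 libraries the medians were -2.12 for 12 liver, -2.27 for 9 salivary and -1.32 for 6 skeletal muscle markers, with 0 calls. Without wild-type replicates 3 and 4 they were -0.57 for 5 liver, 0.25 for 2 salivary and 0.12 for 6 skeletal muscle markers, with 1 call, a fall of Amy1 by 1.15 (limma adjusted p = 0.0361) that was lost when any 1 more library was left out. Of the erythroid list only Alas2 was tested (-1.84), and the globin genes Hba-a1, Hba-a2, Hbb-b1 and Hbb-b2 were listed at or near 0. The part of these cell types and of wild-type replicates 3 and 4 in the casein differences was not tested. The luminal markers cover luminal cells in general, so casein levels relative to them cannot tell more secretory cells from more RNA per cell. Values without those libraries are a description too.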

How the data were processed

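The series holds 16 mouse mammary gland samples, of which the 7 RNA libraries (3 Socs2-Δs, 4 wild type) were used; the other 9 (ChIP-seq and DNase-seq) were not analysed here. Libraries were made from poly(A) RNA with a TruSeq kit after Trizol and column purification, per the labels' protocols. The authors deposited FPKM per gene; STAR, Bowtie2, CASAVA and DESeq2 stand in the submitters' processing notes, with no versions or roles, as does build mm9. Not given in the sources used here are the annotation, the counting and its use of strand, so overlapping, antisense and related genes may share reads. Libraries were grouped by title. A RefSeq table of GRCm38.p6, which held 24107 of the Entrez IDs, was used for names, gene order and promoters.

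Whole reads were recovered from the steps between FPKM values (tolerance 0.02) and used for depth, counting error and the casein share of reads. Groups were compared by limma 3.58.1 (R 4.3.3) with a mean-variance trend and no covariate, on log2(FPKM + 1), a scale on which low genes show smaller changes. It took genes whose mean over the libraries in the fit reached 1 FPKM, with Benjamini-Hochberg adjustment and a threshold of 0.05, and was tested on simulated data. Alternatives were a pseudocount of 0.1, no filter, 3 other scalings, a replicate block, a term for or omission of wild-type replicates 3 and 4, and leaving out each library. The comparison without wild-type replicates 3 and 4 and its own alternatives were chosen with the data known. The members and the 16 gene lists (1 of them the caseins) were chosen with earlier results of these data known and give no independent support. Mucl1, of the other milk proteins, was not found. A lymphocyte gene is not reported here and was left out of its list.

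Genes named were the 5 caseins, the 5 genes most correlated with each, 10 genes named in any case (Socs2, Stat5a, Stat5b, Prlr, Elf5, Nr3c1, Wap, Lalba, Glycam1 and Fam20c), the neighbours of the cluster, and in each list up to 4 members past the threshold by smallest p, or the 2 of smallest p where none passed. Mfge8, Prom1, Bhlha15, Fam20a, Galnt3, Neat1 and the motifs were chosen after values were seen.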

Additional observations from a re-analysis of the deposited data

Results flagged for a closer look

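In 63 genes and 9 casein totals or shares, the highest or lowest wild-type library was checked for a gap to the next one. Flagged was a gap that took most of the wild-type range (Dixon's ratio for 4 libraries), and 11 were found. Chance gives about 1 in 20 for independent, normally distributed values. These are FPKM of genes that correlate and were listed with earlier results known, so the count is not set against chance. None was a casein, a casein total or a casein share. Glycam1 was set apart by 1955 FPKM in wild-type replicate 3, against at most 513 FPKM in the other wild-type libraries. Fam20c was set apart at the low end, by 8.40 FPKM in wild-type replicate 4. Markers of T cells were high in 1 library of each group, Cd2 at 14.8 FPKM in Socs2-Δs replicate 2 and 19.3 FPKM in wild-type replicate 4, and Cd3e at 13.8 FPKM in Socs2-Δs replicate 2 and 12.7 FPKM in wild-type replicate 4. In wild-type replicate 3 the erythroid gene Alas2 reached 200.3 FPKM, and the muscle genes Mylpf and Tnnc2 reached 202.1 and 229.4 FPKM. Apoa2, a liver gene, reached 451.4 FPKM in wild-type replicate 4. The neighbours of the casein cluster Ugt2b37, Ugt2a3 and Ugt2b38 stood out in the same library, at 2.61, 3.50 and 3.21 FPKM. All 11 flags thus fell on wild-type replicate 3 or 4, and the Socs2-Δs group of 3 was too small for this check.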

How the results depend on the processing

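No casein changed direction under any alternative run. With 7 libraries, 71 alternatives for single caseins kept their side of the threshold, and the other 4 passed it without wild-type replicates 3 and 4: Csn1s1 at 2.49, Csn1s2a at 3.25, Csn1s2b at 1.67 and Csn3 at 2.21, so that the count of caseins went to 4, against 0. The count of 6 genes became 1 with a pseudocount of 0.1 or no filter, 28 with quantile normalization, 3 with equal totals without the caseins, 284 without wild-type replicates 3 and 4, 0 with a term for those libraries, 0 with the replicate block and 0 to 31 when 1 library was left out. Without wild-type replicates 3 and 4, the count of 4 caseins became 2 with the filter over 7 libraries, 0 with the term or with no filter, and 0 to 1 when 1 library was left out; the count of 284 genes became 0 with the term, 25 with no filter, 187 with equal totals and 0 to 66 when 1 library was left out. Of the alternatives for single caseins there, 34 kept the side of the threshold and 29 lost the call, and Csn2 gained it with equal totals (limma adjusted p = 0.0403) and with the block (0.0312). Csn2 differed by 1.03 with quantile normalization of 7 libraries and by 0.21 in 5, which by its construction gives the top genes of all libraries alike values. The libraries share only a replicate number: deviations from the group means correlated at 0.350, -0.104 and 0.283 for numbers 1, 2 and 3, and Socs2-Δs replicate 2 correlated best with wild-type replicate 4 (0.338). With the replicate block the caseins differed by 1.32 to 2.47 over 7 libraries, with 0 calls, and 5 caseins and 319 genes passed without wild-type replicates 3 and 4. In these block fits a library with no partner of its number (wild-type replicate 4 of the 7, Socs2-Δs replicate 3 of the 5) adds nothing to the difference. The mutant casein share was 15.0% of FPKM and 9.97% of reads. The cause of these shifts was not tested. Depth limits Csn1s2b alone among the caseins, at 3 reads in wild-type replicate 4.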
